A study of Ovis aries with 2 samples.

Results

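The miR-17/92 cluster and its paralogs were followed in extracellular vesicles of the uterine luminal fluid (ULF) of sheep. Members were the sequences whose precursor is named mir-17, mir-19a, mir-19b, mir-20a, mir-92a, mir-93 or mir-106b, with copy numbers ignored. They make up 8 of the 125 mature sequences of the deposited table of all libraries, and 7 of the 81 sequences that had counts in vesicles from cyclic or pregnant ewes. The eighth, a second mir-17 sequence from the opposite arm of the hairpin, is listed at 0 in both. Vesicles were precipitated from uterine flushings of Rambouillet ewes on day 14. Cyclic ewes were collected on day 14 after estrus and pregnant ewes on day 14 after mating with an intact ram at estrus, no treatment is stated, and the ewes are described as mature, without an age. RNA of 4 ewes was pooled before sequencing, so that each condition is 1 library with no replicate, and every ratio below compares these 2 libraries, not the conditions. Neither the number of vesicles per library nor the RNA per vesicle was measured by sequencing, so that fewer vesicles of a source and less RNA in each cannot be told apart.

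MicroRNAs are short RNAs that repress mRNAs whose sites pair with the seed, bases 2 to 8 of the mature strand. In mammals the miR-17/92 cluster is transcribed as a single precursor that yields miR-17, miR-18a, miR-19a, miR-20a, miR-19b and miR-92a, and it is known from mouse and human as a driver of proliferation and survival that is induced by MYC. Its paralogs are the miR-106a/miR-363 cluster, which also encodes copies of miR-19b and miR-92a, and the miR-106b/25 cluster, which encodes miR-106b, miR-93 and miR-25 inside an intron of MCM7, a gene of the replicative helicase. A known target of the miR-17 seed in human is the cell cycle inhibitor CDKN1A.

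The deposited mature sequences are cattle sequences of miRBase, written 5′ to 3′ with the seed in capitals. The members that had counts fall into 3 seed groups, and the sequences are shown because the grouping and the division of reads between near-identical members rest on them.
miR-17: cAAAGTGCttacagtgcaggtagt
miR-20a: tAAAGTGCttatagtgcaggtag
miR-93: cAAAGTGCtgttcgtgcaggta
miR-106b: tAAAGTGCtgacagtgcagat
miR-19a: tGTGCAAAtctatgcaaaactga
miR-19b: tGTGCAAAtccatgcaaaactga
miR-92a: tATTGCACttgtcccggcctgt
The miR-17 seed group holds miR-17, miR-20a, miR-93 and miR-106b, the miR-19 seed group holds miR-19a and miR-19b, and miR-92a stands alone. The core AAGTGC within bases 1 to 9 was found in 4 of the 81 sequences (4.94%), which were the 4 members with the miR-17 seed. Of the 125 sequences 10 (8.0%) held it. The other 6 were miR-106a, miR-292 and miR-302a to miR-302d, none of which had counts in these libraries.

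Some members differ by very few bases, counted here from 1 at the 5′ end without gaps. miR-19a and miR-19b differ at 1 of 23 bases (T11C, miR-19a as reference). miR-17 and miR-20a differ at 2 of 23 bases (C1T and C12T, miR-17 as reference). miR-106a, which is listed at 0 in both libraries, differs from miR-17 at 1 of 22 bases (A1C, miR-106a as reference). Between seed groups the identity was 17.4 to 36.4%. Since the workflow of the authors accepted reads with mismatches, the division of counts between miR-19a and miR-19b, and among miR-17, miR-20a and miR-106a, is uncertain.

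The libraries differed in the number of mature miRNA counts. Of 119605 reads of the pregnant library 2809 were counts of mature miRNAs, and of 94735 reads of the cyclic library 7921. The table lists no count under 10, and a 0 therefore stands for 0 to 9 copies. The upper end of this is a share of 0.320% for the pregnant and of 0.114% for the cyclic library. Shares are given with exact Clopper-Pearson 95% intervals and ratios with exact conditional binomial 95% intervals. These cover counting error only and leave out differences between ewes and between libraries, since each condition is 1 pooled library. PCR copies also cannot be told from molecules without molecular identifiers. Of the 6 epithelial markers, all had counts in the cyclic library and 4 (miR-200a, miR-200b, miR-200c and miR-205) in the pregnant library, where miR-141 and miR-429 were listed at 0 against 43 and 20 cyclic counts. Together they took 11.9% of the pregnant and 13.6% of the cyclic library.

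All 7 members were listed for vesicles from cyclic ewes, and only miR-19b and miR-92a for vesicles from pregnant ewes. Of all 81 sequences, 27 were listed for cyclic ewes only, 53 in both libraries and 1 for pregnant ewes only. The 7 members together took 223 of the cyclic counts, a share of 2.82% (2.46 to 3.20%). In the pregnant library the listed members had 48 counts, 1.71%, and with up to 9 hidden copies of each of the other 5 the sum can reach 93 counts, 3.31%. The ratio of shares, pregnant over cyclic, for all members therefore lies between 0.607 (0.435 to 0.832) and 1.18 (0.913 to 1.5), so that whether the family as a whole was higher or lower could not be told.

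miR-19b, the most abundant member, had 128 counts in the cyclic library, 1.62% (1.35 to 1.92%), and 34 in the pregnant library, 1.21% (0.840 to 1.69%). It ranked 22nd of the 80 listed sequences in cyclic and 28th of the 54 in pregnant ewes. It made up 57.4% of the counts of the members in the cyclic library and 70.8% of those listed in the pregnant library. The other 6 members lay between 0.126% and 0.303% of the cyclic library, and their intervals overlapped each other while that of miR-19b lay above all of them.

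**Figure D1:**
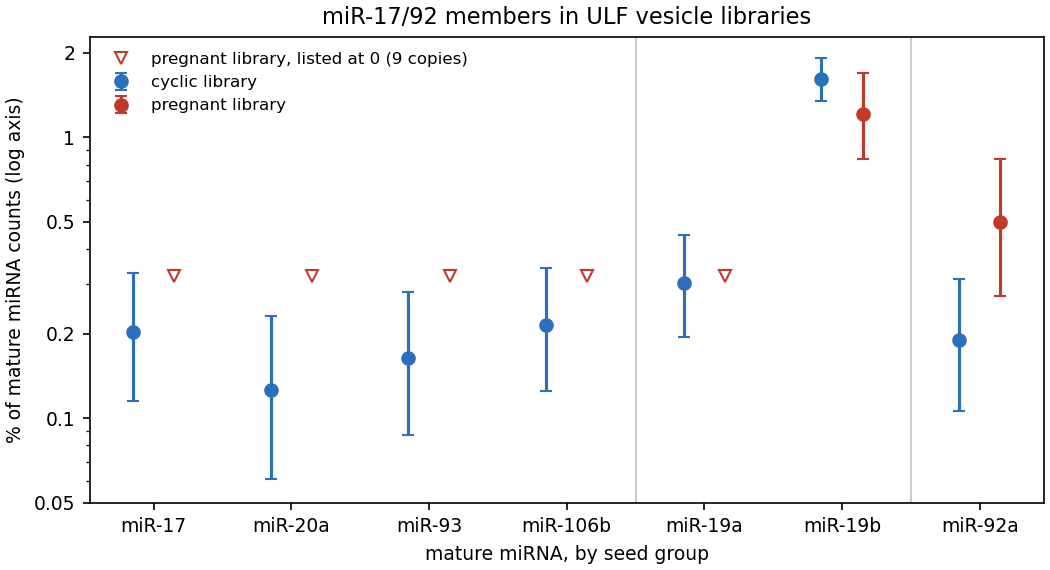
Share of each member in the mature miRNA counts of the cyclic (blue) and pregnant (red) library, in percent on a log axis, with exact 95% intervals of counting error. Open triangles mark the share that 9 copies would have in the pregnant library, 0.320%, for the 5 members listed there at 0, and vertical lines divide the seed groups. The triangles lie above each cyclic share beside them, so for these 5 members a listing at 0 does not separate the libraries.

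The miR-17 seed group was listed for cyclic ewes only. miR-17, whose precursor gives the cluster its name, had 16 counts in the cyclic library, 0.202% (0.116 to 0.328%), and miR-20a of the same cluster had 10, the lowest count that the table lists. miR-106b had 17 counts, 0.215% (0.13 to 0.34%), and miR-93, which lies in the same cluster as miR-106b, had 13. Together the 4 had 56 counts, 0.707% (0.534 to 0.917%), against 0 to 36 counts, or at most 1.28%, in the pregnant library.
At the same share of mature miRNA counts as in the cyclic library, miR-17 would have 5.67 counts in the pregnant library, miR-20a 3.55, miR-93 4.61 and miR-106b 6.03. All of these are under 10 and would be listed at 0. The same ratio was at most 1.59 for miR-17, 2.54 for miR-20a, 1.95 for miR-93 and 1.49 for miR-106b. These bounds lie above 1 and give no direction relative to mature miRNA counts. A lower share of these 4 was not detectable at this depth, while a call of higher would have needed 10 pregnant counts for miR-20a, 12 for miR-93, 13 for miR-17 and 14 for miR-106b.

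The miR-19 seed group had 152 counts in the cyclic library, 1.92% (1.63 to 2.25%), and 34 to 43 in the pregnant library, 1.21 to 1.53%. miR-19a had 24 counts in the cyclic library, 0.303% (0.194 to 0.45%), and was listed at 0 in the pregnant library, where 8.51 counts would give the same share. Its ratio was at most 1.06. miR-19b had a ratio of 0.749 (0.497 to 1.10), an interval that includes 1. With edgeR's TMM the interval of miR-19b lay below 1 (ratio 0.672, 0.447 to 0.988), as it did with DESeq2's size factors (0.641, 0.426 to 0.942), but the ratio stayed above the limit of 0.5 for a call. The ratio of the group was at most 0.798 (0.555 to 1.13 at this bound).

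Of the 2 members listed in both libraries, miR-92a had the higher share of mature miRNA counts in vesicles from pregnant ewes. It had 14 counts in the pregnant library, 0.498% (0.273 to 0.835%), and 15 in the cyclic library, 0.189% (0.106 to 0.312%), so that nearly equal counts stood in libraries of unequal depth. The ratio was 2.63 (1.18 to 5.85). At its cyclic share miR-92a would have 5.32 counts in the pregnant library, under 10, and would be listed at 0. Any listed pregnant count therefore gives a ratio above 1, so the listing minimum set this direction, which the interval does not take into account. miR-92a ranked 43rd of 54 in the pregnant and 67th of 80 in the cyclic library. A call of higher or lower required an interval without 1 and a change of 2-fold or more in the pregnant library. By this rule 1 of the 7 members, miR-92a, was called higher, against 5 of all 81 sequences (6.17%). None of the 7 was called lower, against 2 of 81 (2.47%).

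The calls were limited by depth. At the 15 cyclic counts of miR-92a a call of higher needed 13 pregnant counts, 1 fewer than it had. A call of lower for a miRNA listed at 0 needed 52 cyclic counts, which of the members only miR-19b had, and miR-19b was listed in both libraries. The count of calls therefore does not compare the directions within the family.

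**Figure D2:**
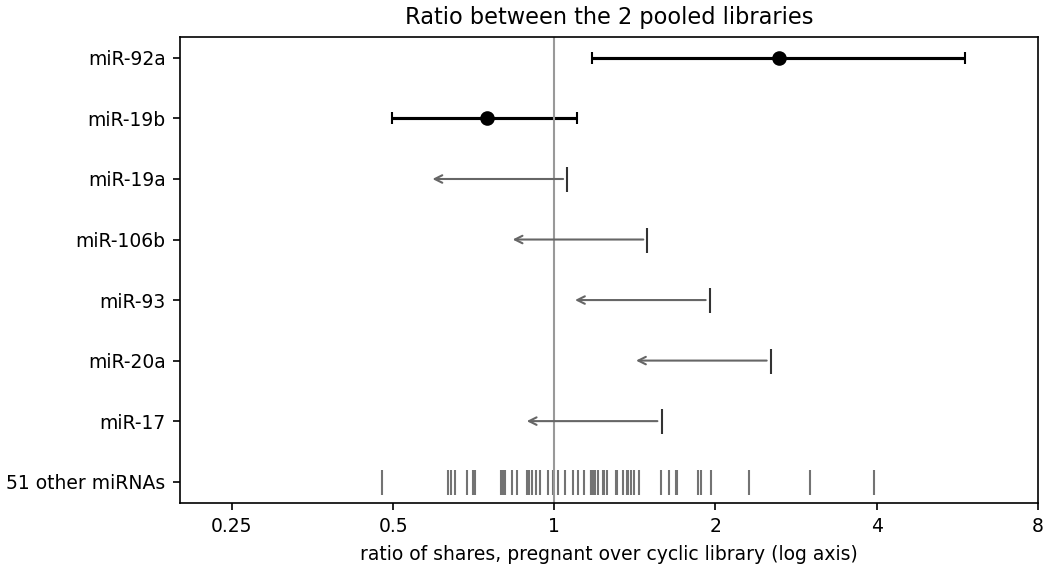
Ratio of the share in the pregnant over that in the cyclic library, on a log axis, for the 7 members. Points with bars are the members listed in both libraries with exact 95% intervals (2.63 for miR-92a and 0.749 for miR-19b), ticks with arrows are upper bounds for members listed at 0 in the pregnant library, and the row of ticks at the bottom gives the 51 other miRNAs listed in both. The interval of miR-92a lies above 1, that of miR-19b includes 1, and every bound is above 1.

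The direction of miR-92a depends on what the counts are divided by, whereas the ratio of miR-19b was below 1 under each divisor tried. Division by all reads of the library moves every log2 ratio by -1.83, and the ratio of miR-92a then fell below 1 (0.739, 0.331 to 1.64). Relative to all reads miR-19b was called lower (0.210, 0.140 to 0.309), as were miR-19a (at most 0.297, upper limit 0.662) and miR-106b (at most 0.419, upper limit 0.995). These 3 of 7 members stand against 58 of all 81 sequences (71.6%) that were called lower relative to all reads. With TMM the ratio of miR-92a was 2.36 (1.06 to 5.25), and with DESeq2's size factors 2.25 (1.01 to 5.00).

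**Figure D3:**
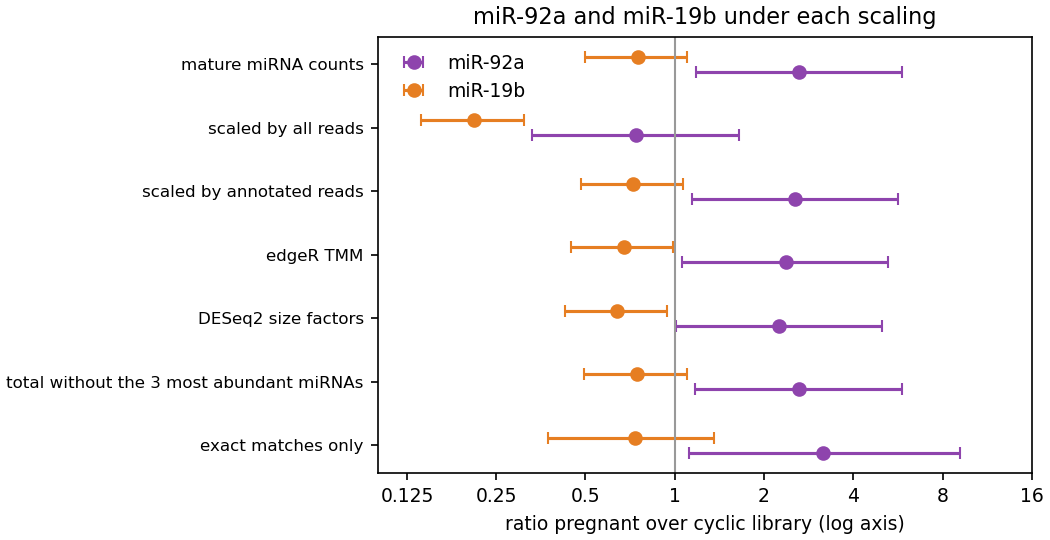
Ratio of pregnant over cyclic shares for miR-92a (purple) and miR-19b (orange) with exact 95% intervals, on a log axis, under each divisor of the counts and for exact matches only. The ratio of miR-92a lies between 2.25 and 3.15 in all settings shown but division by all reads, where it is 0.739, and miR-19b lies left of miR-92a in each setting.

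The balance between miR-92a and miR-19b does not depend on the divisor, since both are read from the same library. This comparison was chosen after the counts were seen, and the pair is the 2 members that reached the listing minimum in the pregnant library. At its cyclic share miR-92a would have 5.32 pregnant counts and be listed at 0. A higher balance in the pregnant library was thus set by the listing, and the intervals do not take this into account. For every 100 counts of miR-19b there were 11.7 of miR-92a in the cyclic and 41.2 in the pregnant library, an odds ratio of 3.49 (exact conditional 95% interval 1.41 to 8.62). Among exact matches there were 16.7 and 71.4 per 100, an odds ratio of 4.19 (1.23 to 15). Both miRNAs have gene copies in the miR-17/92 and in the miR-106a/miR-363 cluster, and no count of either was assigned to 1 precursor only, so the counts do not tell from which cluster they came.

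By cluster, the members encoded in miR-17/92 but not in miR-106a/miR-363, which are miR-17, miR-19a and miR-20a, had 50 counts in the cyclic library, 0.631% (0.469 to 0.831%), and at most 27, or 0.961%, in the pregnant library. miR-106b and miR-93 of the miR-106b/25 cluster had 30 counts, 0.379% (0.256 to 0.540%), and at most 18, or 0.641%. miR-19b and miR-92a, which have copies in both of the other clusters, had 143 counts, 1.81% (1.52 to 2.12%), and 48, or 1.71%, a ratio of 0.947 (0.668 to 1.32). Added up in this way the higher ratio of miR-92a and the lower one of miR-19b were no longer visible. All counts of miR-17, miR-19a, miR-20a, miR-93 and miR-106b were assigned to 1 precursor only.

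Of 7 further miRNAs of these clusters or with the seed of miR-92a, which were miR-18a, miR-18b, miR-20b, miR-25, miR-106a, miR-363 and miR-92b, 3 had a row in the table of all libraries. miR-18a, miR-25 and miR-106a were listed at 0 in both libraries, and the other 4 had no row. A listing at 0 is not an absence. By RT-qPCR the authors detected miR-18a, as well as miR-19b, in ULF vesicles of both cyclic and pregnant ewes. miR-25 shares the seed of miR-92a, and the seed of miR-18a resembles that of miR-17:
miR-25: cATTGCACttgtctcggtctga
miR-18a: tAAGGTGCatctagtgcagata
The 30 listed cyclic counts of the miR-106b/25 cluster thus belonged to miR-106b and miR-93, beside at most 9 hidden copies of miR-25. In the sheep annotation, 3 of the 7 members had a gene of the same name. MIR17 and MIR19B neighbour each other within 10 kb, and MIR106B lies within MCM7 and beside MIR25.

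Members differed widely in how many of their reads matched the cattle sequence exactly. Of the 56 cyclic counts of the miR-17 seed group, 1 was an exact match (1.79%, 0.0452 to 9.55%), a read of miR-93, and miR-17, miR-20a and miR-106b had 0. In the miR-19 seed group 56 of 152 cyclic counts were exact (36.8%, 29.2 to 45.0%). miR-19a had 8 of 24, and miR-19b had 48 of 128 in the cyclic (37.5%) and 14 of 34 in the pregnant library (41.2%). miR-92a had 8 of 15 in the cyclic (53.3%, 26.6 to 78.7%) and 10 of 14 in the pregnant library (71.4%, 41.9 to 91.6%). The intervals of the same miRNA overlapped between the libraries, whereas the interval of the miR-17 seed group lay below those of the other groups.

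Sequences without an exact match were the majority in these files, with 57 of 80 listed sequences in the cyclic and 41 of 54 in the pregnant library. Over all sequences 9.80% of the cyclic and 11% of the pregnant counts were exact. miR-92a ranked 11th of 80 and 4th of 54 by the exact share. The last base of the reference sequence moved with the exact share. Of the 18 sequences that end in A, 16 had an exact match, and 45.5% of their counts were exact, whereas of the 36 that end in T only 2 had one (0.338% of counts). miR-19a, miR-19b and miR-93 end in A, miR-17, miR-106b and miR-92a end in T, and miR-20a ends in G. Among the sequences ending in T, miR-92a held 18 of the 19 exact matches. The part of the last base in the exact share was not tested.

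**Figure D4:**
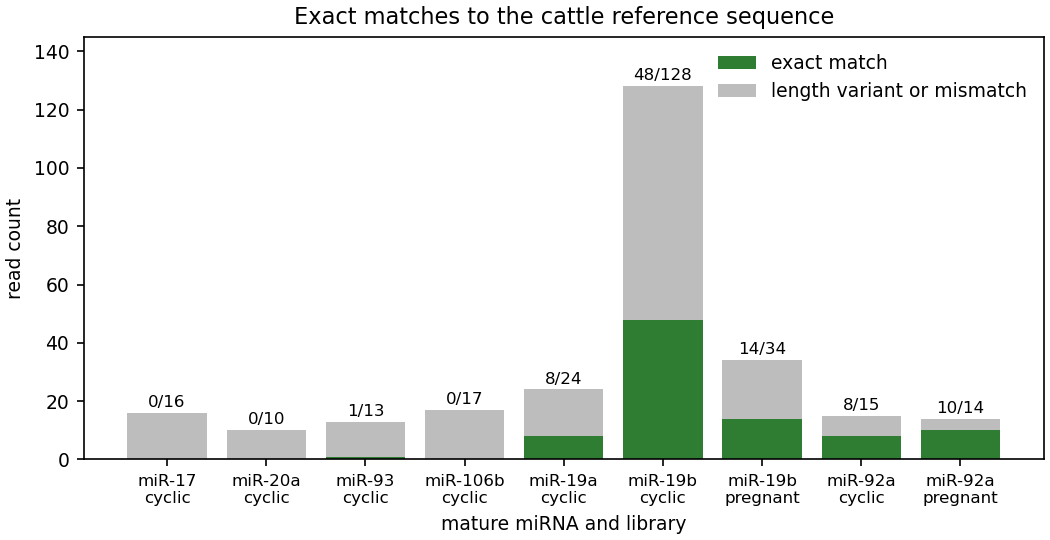
Read counts of each member in the libraries where it was listed, divided into exact matches to the cattle reference (green) and reads with another length or a mismatch (grey). The numbers above the bars give exact matches over all counts, from 0/16 for miR-17 to 10/14 for miR-92a in the pregnant library.

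The miRNAs with the ratio nearest to a member, over the 2 libraries only, were miR-23b (33 pregnant and 31 cyclic counts, ratio 3.0) and miR-9 (18 and 22, ratio 2.31) for miR-92a. Each lay 0.19 from it on the log2 scale. For miR-19b they were miR-200a (73 and 289, ratio 0.712) and miR-29a (47 and 167, ratio 0.794), at 0.07 and 0.08. With 1 value per condition this likeness describes these ratios and nothing more. The median log2 ratio of the 53 sequences listed in both libraries was 0.22, beside 1.40 for miR-92a and -0.42 for miR-19b.

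Members of the family are also abundant in blood cells, so the markers of these cells are given beside the ratios. Of the 3 erythroid markers 1 had counts, miR-451, with 12 pregnant and 71 cyclic counts (0.427 and 0.896% of counts), a ratio of 0.477 (0.235 to 0.885). It was called lower, on the same side of 1 as miR-19b and on the opposite side to miR-92a. Of the 4 leukocyte markers 1 had counts, miR-223, with 56 cyclic counts and a listing at 0 in the pregnant library. Its ratio was at most 0.453 (0.197 to 0.923 at this bound), and it was called lower. miR-451 and miR-223 were the 2 sequences called lower among the 81. miR-342, a blood-cell miRNA outside these marker lists, had 41 pregnant and 83 cyclic counts. Its share was higher in the pregnant library by less than 2-fold, and it was not called. None of the 6 markers of the early embryo and trophoblast, the miR-302 members a to d, miR-367 and miR-371, was among the 81 sequences. The part of these cells in the counts of the members was not tested.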

How the data were processed

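Small RNA of ULF extracellular vesicles was sequenced with Ion Torrent in 1 pregnant and 1 cyclic library of 4 pooled ewes each. The authors kept reads of 15 to 55 bp with CLC Genomics Workbench in its small RNA mode (version not given in the sources used here), compared them with cattle miRNAs of miRBase release 19, and deposited whole-number read counts per mature miRNA with a minimum of 10 copies, not normalized. Columns of fold change and mean in the deposited tables were not used. Nor were 6 columns of a library named Conceptus, which matched no sample of the series. Of the 125 sequences listed over all libraries, 44 were at 0 in both libraries used here. Both tables held the same counts for the 81 sequences.

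Counts were divided by the total of the listed mature miRNA counts of the library. Intervals were computed in Python 3.11.15 with SciPy 1.17.1 and NumPy 2.4.6, and figures were drawn with matplotlib 3.10.9. With 1 library per condition no test between conditions was made. For a miRNA at 0 the bound was taken at 9 copies. Calls were tried on simulated data in which changes were placed only in miRNAs of at least 52 cyclic counts. Of the members only miR-19b has that many, so finding a change at the counts of the other 6, miR-92a among them, was not tried. Intervals were tried at equal shares without the listing minimum.

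Alternatives were division by all or by annotated reads, edgeR 4.0.16 (TMM) and DESeq2 1.42.0 (size factors) in R 4.3.3 over the 53 sequences in both libraries, the total without the 3 most abundant miRNAs, exact matches, reads of 1 precursor, minimums of 20 and 50 counts, and 3 counts for a miRNA at 0. Sheep gene names came from assembly ARS-UI_Ramb_v3.0, without coordinates, since no build is named for the counts. The named miRNAs were all members, the other miRNAs of the clusters, sequences with the core of the miR-17 seed, the 2 nearest ratios and cell markers. Members and lists were chosen with earlier results of these data known.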

Additional observations from a re-analysis of the deposited data

How the results depend on the processing

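No paired analysis was possible because each condition has 1 library. Relative to all reads the ratio of miR-92a was reversed to 0.739, miR-19b was 0.210, the bound of the miR-17 seed group 0.509 and that of the miR-19 seed group 0.224. 0 members were then called higher, as were 0 of all 81 sequences. 3 members were called lower, against 58 of 81 (71.6%). With reads of 1 precursor only, where miR-92a and miR-19b had no value, 0 members were called higher, against 3 of 78 sequences (3.85%). A minimum of 20 or 50 counts in either library leaves miR-92a out. 0 members were then called higher, against 2 of 61 sequences (3.28%) at 20 counts and 0 of 38 at 50. With 3 counts assumed for a miRNA at 0 the ratio of the miR-17 seed group was 0.604 (0.295 to 1.14). This is no bound, since up to 9 copies can be hidden, and at 9 copies the value was 1.81. For exact matches no value could be had for members listed at 0. Relative to mature miRNA counts, the 5 members listed for cyclic ewes only could not be told from an equal share at these depths.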

Other observations

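The second mir-17 sequence, from the opposite arm of the hairpin, was listed at 0 in both libraries, which allows up to 0.320% of the pregnant and 0.114% of the cyclic mature miRNA counts. The 6 bases TTGCAC of the miR-92a seed are the reverse complement of GTGCAA in the miR-19 seed. TTGCAC was in 1 of the 81 sequences (1.23%), miR-92a, and GTGCAA in 2 (2.47%), miR-19a and miR-19b, with matches counted on the strand as listed. Sequences that end in C had 10.7% exact counts and those that end in G 3.59%, between the 45.5% of those ending in A and the 0.338% of those ending in T.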
